A study of Homo sapiens with 4 samples.

Results

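The interferon-stimulated genes described here are 37 named genes that type I and type II interferons are known to induce: antiviral effectors, the ISG15 conjugation system, transcription factors of the pathway, the PARP9 and DTX3L complex, and the proteasome and transporter genes of antigen processing. They were taken from a list of gene names and not from their measured values. Of the 37 genes, 35 had a probe set that the platform annotation assigns to 1 gene only, out of 18417 genes measured in this way. STAT2 and GBP1 had none.

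The genes were followed in MCF12A, an established non-tumorigenic human breast epithelial line, in monolayer culture that for 1 week received ethanol or acetaldehyde, the first product of ethanol oxidation. One array each was hybridised for ethanol at 25 mM, for control 1, which is the unexposed culture of the ethanol experiment, for acetaldehyde at 2.5 mM, and for control 2, which is the unexposed culture of the acetaldehyde experiment. All 4 cultures shared a medium with cholera toxin, insulin, hydrocortisone, epidermal growth factor and horse serum, and the ethanol and acetaldehyde doses differ, so the responses are set side by side and not compared at a matched dose. Expression was measured on Affymetrix Human Gene 1.0 ST arrays as 1 intensity per probe set. With 1 array per group, none of the differences below has a replicate check, and array number limits the precision of each of them.

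Interferons act on neighbouring cells through cell surface receptors that activate JAK kinases and STAT transcription factors. Type I and type III interferons act through a complex that contains STAT2 and IRF9 and binds the interferon-stimulated response element (ISRE), whereas type II interferon acts through the gamma-activated site (GAS), with IRF1 as an early target that goes on to induce antigen processing genes. Epithelial cells are known to express many of these genes at a low level without infection.

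The promoters of the 5 genes that stood at least 2-fold apart between ethanol and control 1, after a filter on dim genes, are shown. They were chosen by that difference and not by their motifs. Each was searched for the letters through which the pathway is known to reach its targets. Each is a window of 300 bases, 5′ to 3′ on the strand of the gene, from 250 bases before to 50 bases after the annotated start, from RefSeq (build GRCh38.p14). Capitals mark matches to an ISRE, searched as GAAANNGAAA, or a GAS, searched as TTCNNNGAA, on both strands and with overlaps allowed. PSMB8 lies at chr6:32843998-32844297 on the minus strand, DTX3L at chr3:122564088-122564387 on the plus strand and PARP14 at chr3:122680589-122680888 on the plus strand. IRF1 lies at chr5:132490724-132491023 on the minus strand and OAS1 at chr12:112906712-112907011 on the plus strand.
PSMB8: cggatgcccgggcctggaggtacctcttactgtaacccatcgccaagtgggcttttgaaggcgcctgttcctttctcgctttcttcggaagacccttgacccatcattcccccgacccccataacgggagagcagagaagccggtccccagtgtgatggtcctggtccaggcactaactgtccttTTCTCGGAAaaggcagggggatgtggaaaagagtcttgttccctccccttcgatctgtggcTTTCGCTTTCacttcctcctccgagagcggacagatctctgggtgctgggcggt
DTX3L: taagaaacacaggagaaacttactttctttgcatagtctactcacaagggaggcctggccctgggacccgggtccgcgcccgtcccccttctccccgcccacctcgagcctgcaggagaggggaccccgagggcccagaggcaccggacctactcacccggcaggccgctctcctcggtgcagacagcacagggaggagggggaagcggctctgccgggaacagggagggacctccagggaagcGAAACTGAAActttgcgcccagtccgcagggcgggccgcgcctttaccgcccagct
PARP14: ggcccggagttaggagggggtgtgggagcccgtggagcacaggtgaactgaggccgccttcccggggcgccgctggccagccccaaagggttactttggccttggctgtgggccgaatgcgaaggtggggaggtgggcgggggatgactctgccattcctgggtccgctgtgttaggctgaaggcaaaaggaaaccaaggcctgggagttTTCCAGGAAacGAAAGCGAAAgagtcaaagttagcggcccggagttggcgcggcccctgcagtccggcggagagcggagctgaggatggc
IRF1: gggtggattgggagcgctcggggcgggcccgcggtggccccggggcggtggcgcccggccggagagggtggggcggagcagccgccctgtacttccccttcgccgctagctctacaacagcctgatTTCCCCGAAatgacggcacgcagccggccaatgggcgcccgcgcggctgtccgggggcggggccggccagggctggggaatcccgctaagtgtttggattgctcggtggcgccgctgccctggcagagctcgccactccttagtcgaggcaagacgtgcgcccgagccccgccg
OAS1: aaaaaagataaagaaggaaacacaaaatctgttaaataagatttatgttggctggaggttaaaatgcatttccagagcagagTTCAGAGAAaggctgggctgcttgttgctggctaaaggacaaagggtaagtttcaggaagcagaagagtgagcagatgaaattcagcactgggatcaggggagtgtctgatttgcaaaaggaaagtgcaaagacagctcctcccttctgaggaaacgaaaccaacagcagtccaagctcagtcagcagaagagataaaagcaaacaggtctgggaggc

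In these windows PSMB8 held a GAS at bases 186 to 194 and an ISRE, read on the opposite strand, at bases 247 to 256, next to the annotated start. PARP14 held both motifs side by side, a GAS at bases 211 to 219 and an ISRE at bases 222 to 231. DTX3L held an ISRE at bases 245 to 254. IRF1 held a GAS at bases 127 to 135 and OAS1 a GAS at bases 83 to 91, and neither of their windows held the ISRE letters as searched. PSMB8 has a second annotated start whose window, chr6:32844630-32844929, held neither motif. The window of PARP9, which is transcribed away from DTX3L, shares 137 bases with the DTX3L window and holds the same ISRE match on its other strand.

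Over the whole list, 31 of the 37 genes had a promoter window in the RefSeq table. The ISRE letters were present for 22 of these 31 genes (71.0%), against 4.38% of the 27305 genes in the table and 3.57% of its 35116 windows. The GAS letters were present for 10 of the 31 genes (32.3%), against 9.38% of all genes and 7.66% of all windows. Among the 29 genes with both a window and a probe set, the 21 with an ISRE had a median ethanol difference of 0.67 on the log2 scale and 17 of them were higher with ethanol. The 8 without one had a median of 0.27, and 4 of them were higher. After the filter on dim genes the medians were 0.75 for the 10 genes with an ISRE and 0.73 for the 5 without. The wider gap in medians over the 29 genes thus rests on dim genes. A gap in direction remained among the kept genes. Of those with an ISRE 9 of 10 were higher with ethanol, and of those without one 3 of 5. Of the kept genes, IFIT5, PARP9 and PSMB8 (with an ISRE) and PSMB9 (without) passed the filter through the ethanol array alone. For the GAS, 6 of 10 genes with it were higher with ethanol (median 0.60), and 15 of 19 without it (median 0.64). A match is a run of letters and not a shown binding site, and a window without a match says only that these letters are not in it.

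Intensities were read on a linear scale and differences are given as log2 differences. A gene was kept if the highest of its 4 values reached an intensity of 155, the median over all gene values, which left 16 of the 35 interferon-stimulated genes and 10373 genes in all. The other 19 interferon-stimulated genes stayed below this intensity on all 4 arrays, and their values are given as measured but with no weight on their size. A difference was counted when it was at least 2-fold and the exposed array lay outside the values of both unexposed controls. The median intensity over all probe sets was 90.2 with ethanol, 92.2 in control 1, 113.0 with acetaldehyde and 113.8 in control 2, and the distributions matched within each pair but not across pairs, so levels set across the experiments include a difference in normalization. The mammary epithelial markers were present, with all 13 measured genes kept, though not level: 7 were higher and 6 lower with ethanol, between -1.14 for CD24 and 1.35 for LAMB3 on the log2 scale. LAMB3, a laminin chain of the basement membrane, was counted as at least 2-fold higher, and CD24 differed by -2.35 between control 2 and control 1.

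Interferon-stimulated genes were more often higher than lower with ethanol against control 1, by a margin that depended on the filter. Of the 16 kept genes 12 were higher and 4 lower, with a median log2 difference of 0.70, against 0.05 over all kept genes, of which 57.8% were higher. Of these 16 genes, 4 (PSMB8, PARP14, DTX3L and IRF1) were counted as at least 2-fold higher, where the share over all kept genes was 0.848%, and 1 (OAS1) was counted as at least 2-fold lower, where that share was 1.41%. The filter itself favours genes that were high on 1 array: IFIT5, PARP9, PSMB8 and PSMB9 were kept through the ethanol array alone. Without these 4 genes, 8 of 12 were higher, 3 were counted and the median was 0.44. With genes kept by their mean over the arrays instead, 6 of 10 were higher, 3 were counted as higher and the median was again 0.44. Over all 35 genes, dim ones included, 24 were higher, 11 were lower and the median was 0.58, against -0.01 over all 18417 genes, and 6 genes were counted as higher, where the share over all genes was 0.586%. At 1.5-fold 10 of the 16 kept genes were counted as higher, where the share over all kept genes was 3.84%. With ethanol set against control 2 instead, 3 of the 16 (IFIT5, PSMB8 and DTX3L) were counted as at least 2-fold higher, where that share was 3.52%, and PARP14 and IRF1 were not.

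The ethanol array held the highest of the 4 values for 10 of the 16 kept genes, against 31.1% of all kept genes. When genes were kept by their mean over the arrays instead, it was highest for 5 of 10 interferon-stimulated genes, against 32.9% of genes. Since the unexposed controls stood at different levels for many genes, the comparison of the 4 arrays is shown gene by gene in the plot of array values.

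**Figure D1:**
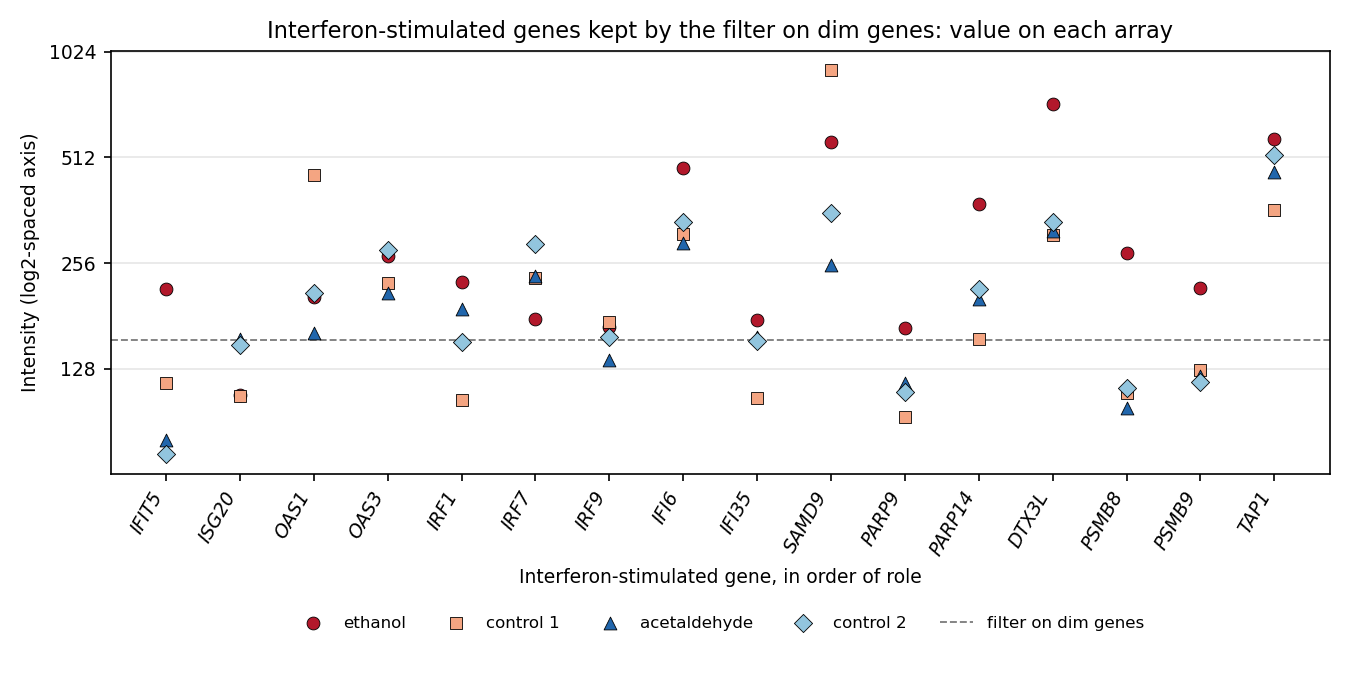
Intensity on each of the 4 arrays (log2-spaced axis) for the 16 kept interferon-stimulated genes, 1 point per array, with the dashed line at the filter intensity of 155. The ethanol points of PSMB8 (273), DTX3L (724) and PARP14 (376) stand above all other arrays, while OAS1 and SAMD9 are highest in control 1 (456 and 907).

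With acetaldehyde the differences were small and more often negative. Of the 16 kept genes 6 were higher and 10 lower than in control 2, with a median of -0.12, against 0.0031 over all kept genes. None of the 16 was counted, where the shares over all kept genes were 0.0193% for higher and 0.174% for lower. The largest difference of a kept gene was that of SAMD9, -0.49, and over all 35 genes that of IFIT1, -0.51. With acetaldehyde set against control 1, 2 of the 16 were counted as lower, where the share was 3.37%. The spread of the acetaldehyde differences over all kept genes was also narrower, with an SD of 0.215, against 0.463 for ethanol and 0.665 between the unexposed cultures.

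The unexposed cultures differed from each other. Compared with control 1, control 2 had 11 of the 16 kept genes higher and 5 lower, and the median was 0.18, against 0.06 over all kept genes. This direction turned when the arrays were shifted to 1 median, with 7 of 15 kept genes higher and a median of -0.070. None was at least 2-fold higher in control 2, where the share over all kept genes was 4.25%, and 2 (OAS1 and SAMD9) were at least 2-fold lower, where it was 4.85%. Over all 35 genes, 3 dim ones (IFIT1, HERC5 and GBP2) were at least 2-fold higher in control 2, where the share over all genes was 5.36%. The ethanol difference and this one share control 1, so a low value in control 1 enters both. Ethanol lay above both controls for 10 of the 16 kept genes, below both for 2 and between them for 4. IFIT5, PARP9, PSMB8 and PSMB9 were kept through the ethanol array alone, so as kept genes they had to lie above both. No share over all kept genes was taken for this count. The ethanol array was the highest of all 4 arrays for 10 of the 16, against 31.1% of all kept genes.

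One test could use all 4 arrays: a limma fit of exposure, with the experiment as a block, over the 10373 kept genes. It called 0 genes (0%) at a Benjamini-Hochberg adjusted p below 0.05, and 1024 genes (9.87%) had an unadjusted p below that value. Among the 16 interferon-stimulated genes the smallest adjusted p of this limma fit was 0.495, and 4 had an unadjusted p below 0.05: SAMD9, OAS1 and IRF7, which were lower with exposure, and IRF1, which was higher. In the limma fit the mean log2 difference over both exposures was -0.58 (SE 0.12) for SAMD9, -0.77 (SE 0.21) for OAS1, 0.72 (SE 0.22) for IRF1 and -0.35 (SE 0.11) for IRF7. The fit has 1 residual degree of freedom and treats ethanol and acetaldehyde as if they were 1 exposure. Its residual is the difference between the ethanol and acetaldehyde responses, which mixes technical spread with any real difference between the exposures. A gene that moved with ethanol alone thus has its own response counted as error, and the p-values do not measure the spread between replicate cultures.

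**Figure D2:**
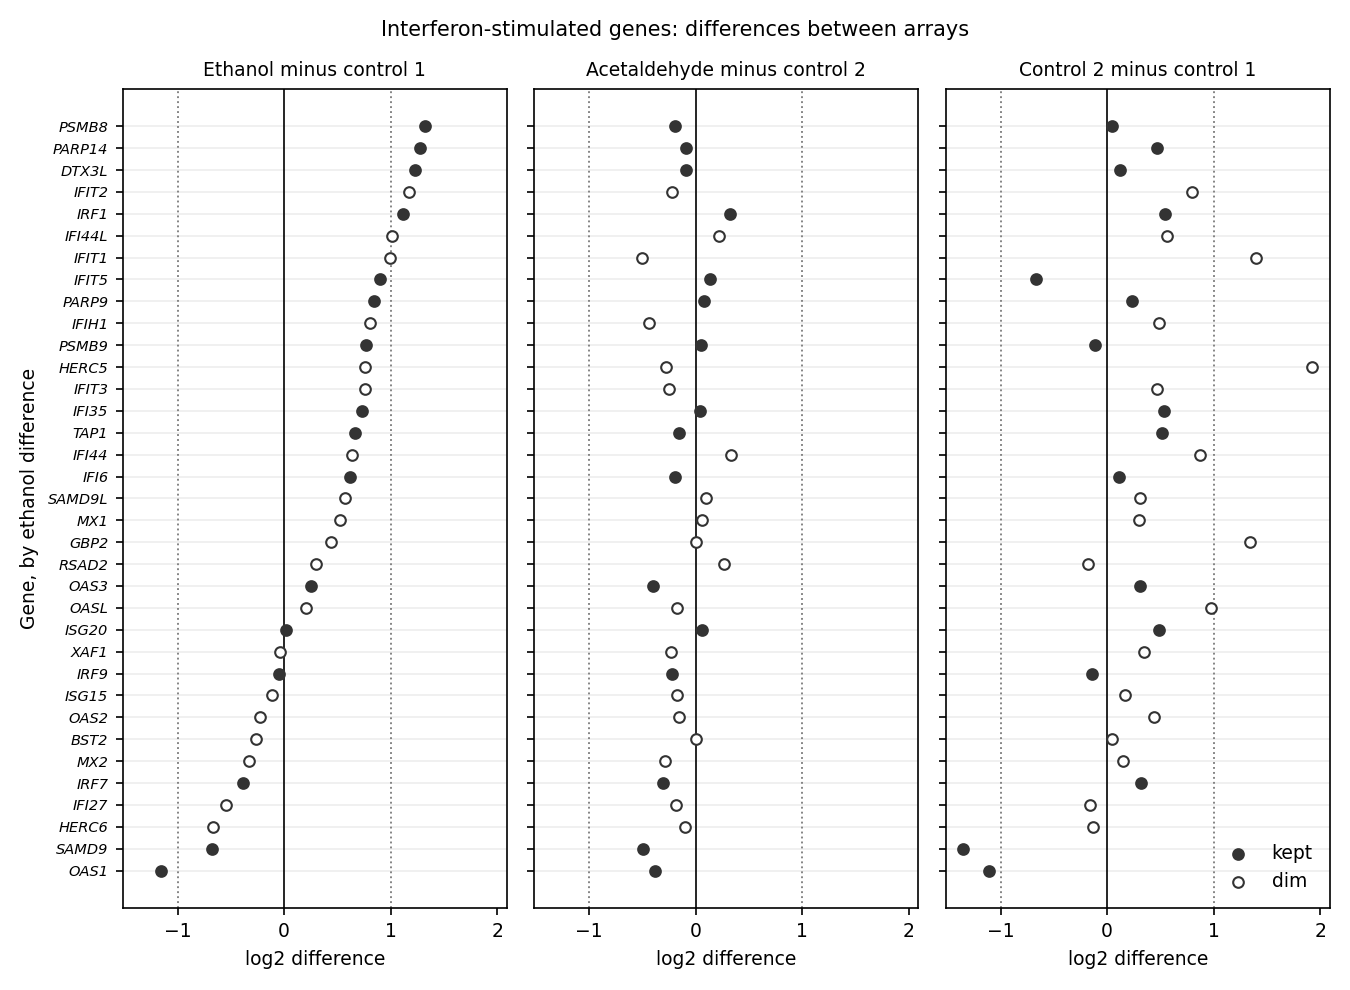
Log2 difference of each of the 35 interferon-stimulated genes (y axis, ordered by the ethanol difference) for ethanol minus control 1, acetaldehyde minus control 2 and control 2 minus control 1, with filled points for kept genes, open points for dim genes and dotted lines at a 2-fold difference. Ethanol differences run between -1.15 and 1.32, acetaldehyde differences lie within 0.51 of 0, and control differences run between -1.35 and 1.93.

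The IFIT proteins bind viral RNA that lacks the cap of host messages. All 4 IFIT genes, neighbours on chromosome 10, were higher with ethanol than in control 1, but only IFIT5 was kept. IFIT5 read 217 with ethanol, against 116 in control 1, and 80.5 with acetaldehyde, against 73.1 in control 2, a log2 difference of 0.90 for ethanol and 0.14 for acetaldehyde. Its ethanol value was the highest of the 4 arrays, and both arrays of the acetaldehyde experiment were lower than both of the ethanol experiment.

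The other IFIT genes were dim. IFIT1 read 58.0 with ethanol, against 29.0 in control 1, and 53.9 with acetaldehyde, against 76.5 in control 2. IFIT2 read 79.7 with ethanol, against 35.3 in control 1, and 52.8 with acetaldehyde, against 61.4 in control 2. IFIT3 read 104 with ethanol, against 61.4 in control 1, and 71.2 with acetaldehyde, against 84.9 in control 2. For all of these 3 genes control 1 was the lowest of the 4 arrays and acetaldehyde stood below its own control. The ethanol value of IFIT1 lay below control 2, and its log2 difference of 1.00 was just short of 2-fold, whereas IFIT2 reached 1.17.

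The other antiviral effectors differed less. ISG20, an exonuclease that degrades single-stranded RNA, was kept just above the filter and read 108 with ethanol, against 107 in control 1, and 156 with acetaldehyde, against 149.8 in control 2. MX1 and MX2 encode dynamin-like GTPases that trap viral nucleocapsids. MX1 read 67.5 with ethanol, against 46.8 in control 1, and MX2 read 34.8 with ethanol, against 43.8 in control 1. These paralogs thus stood in opposite directions, both at dim intensities. RSAD2, which encodes viperin, read 43.3 with ethanol, against 35.1 in control 1, and 37.2 with acetaldehyde, against 30.9 in control 2. BST2, which encodes the tethering protein of budding virions, and XAF1, a pro-apoptotic gene, had log2 ethanol differences of -0.27 and -0.04.

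The OAS enzymes make the second messenger that activates RNase L. OAS1 was the gene of the list furthest lower with ethanol, and it read 205 with ethanol, against 456 in control 1, and 162 with acetaldehyde, against 211 in control 2. Control 1 was the high array here, since ethanol, acetaldehyde and control 2 lay between 162 and 211, and the log2 difference between the controls (-1.11) was nearly as large as that of ethanol (-1.15). Against control 2 the ethanol difference of OAS1 was -0.04, so the fold was absent there. After quantile normalization or a shift of the 4 arrays the difference from control 1 stayed at -1.12 and -1.13, but the ethanol value no longer lay below both controls and OAS1 was not counted. OAS3, the next gene on chromosome 12, read 268 with ethanol, against 225 in control 1, and 211 with acetaldehyde, against 279 in control 2. For OAS3 the ethanol value lay between those of the controls. OAS2 and the catalytically inactive OASL were dim, with log2 ethanol differences of -0.23 and 0.20, and OASL stood 0.98 higher in control 2 than in control 1.

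ISG15 is a ubiquitin-like protein that is attached to other proteins by HERC5, its principal human ligase. None of the 3 genes of this group was kept. ISG15 read 111 with ethanol, against 119.9 in control 1, and 119 with acetaldehyde, against 135 in control 2, so the 4 arrays were close together. HERC5 read 32.1 with ethanol, against 18.9 in control 1, and 59.1 with acetaldehyde, against 71.8 in control 2. HERC6, its neighbour on chromosome 4, read 88.3 with ethanol, against 140.1 in control 1, and 119 with acetaldehyde, against 128 in control 2. HERC5 had the largest control difference of the whole list, a log2 value of 1.93 at very low intensities.

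Among the sensor and transcription factors, IRF1 stood apart from IRF7 and IRF9. IRF1, the early target of type II interferon, read 227 with ethanol, against 104 in control 1, and 190.1 with acetaldehyde, against 152 in control 2, with log2 differences of 1.12 and 0.32. Both of its exposed values lay above both controls, and control 1 was its lowest array. Against control 2 its ethanol difference was 0.57. IRF7, the master factor of type I interferon production, read 178 with ethanol, against 233 in control 1, and 235 with acetaldehyde, against 290.3 in control 2. The 2 exposed arrays were each below their own control for IRF7, with log2 differences of -0.39 and -0.31. IRF9, a DNA-binding partner of STAT2, read 168 with ethanol, against 174 in control 1, and 136 with acetaldehyde, against 158 in control 2. IFIH1 encodes MDA5, a sensor of double-stranded RNA, and was dim at 127 with ethanol, against 72.3 in control 1, and 75.0 with acetaldehyde, against 101 in control 2.

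The group of IFI, SAMD9 and GBP genes held both directions. IFI6, a mitochondrial and endoplasmic reticulum protein with anti-apoptotic activity, read 477 with ethanol, against 309.9 in control 1, and 293 with acetaldehyde, against 335 in control 2. IFI35 read 176 with ethanol, against 106 in control 1, and 158 with acetaldehyde, against 154 in control 2. SAMD9, an antiviral and antiproliferative factor, read 566 with ethanol, against 907 in control 1, and 254 with acetaldehyde, against 356 in control 2. IFI6 was highest with ethanol among the 4 arrays, as was IFI35, while SAMD9 was highest in control 1 and its ethanol value lay between the controls. Its neighbour and paralog SAMD9L was dim and went the other way, at 110.2 with ethanol, against 73.9 in control 1.

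The remaining genes of this group were dim. IFI44L read 62.0 with ethanol, against 30.8 in control 1, and 52.9 with acetaldehyde, against 45.4 in control 2, a log2 ethanol difference of 1.01. IFI44, beside it on chromosome 1, read 25.5 with ethanol, against 16.4 in control 1, and 37.8 with acetaldehyde, against 30.1 in control 2. IFI27 read 95.1 with ethanol, against 139 in control 1, and 109 with acetaldehyde, against 125 in control 2. IFI44L and IFI44 were lowest in control 1, whereas IFI27 was highest there. GBP2, a guanylate-binding GTPase, read 58.5 with ethanol, against 43.2 in control 1, and 109.8 with acetaldehyde, against 109 in control 2, and a second GBP2 probe set with lower intensities had a log2 ethanol difference of 0.58 and an acetaldehyde difference of -0.83.

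PARP9 and DTX3L form a complex of an ADP-ribosyltransferase family member and a ubiquitin ligase that acts on histones and viral proteins, and PARP14 is a mono-ADP-ribosyltransferase. The 3 genes lie together on chromosome 3, all were kept, and all were higher with ethanol than on any other array. PARP9 was kept through the ethanol array alone, so as a kept gene it had to be highest there. DTX3L read 724 with ethanol, against 309 in control 1, and 315 with acetaldehyde, against 335 in control 2. PARP14 read 376 with ethanol, against 156 in control 1, and 203 with acetaldehyde, against 215 in control 2. PARP9 read 167 with ethanol, against 93.6 in control 1, and 117 with acetaldehyde, against 110.1 in control 2. The DTX3L values of the other 3 arrays lay within 309 and 335, so ethanol was 2.35-fold over control 1 and 2.16-fold over control 2. PARP14 was 2.41-fold over control 1 but 1.75-fold over control 2, and PARP9 was 1.79-fold over control 1.

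Antigen processing genes made up the other group in which every gene was higher with ethanol than on any other array. PSMB8 and PSMB9 were kept through the ethanol array alone, so as kept genes they had to be highest there. PSMB8 and PSMB9 encode subunits that replace their constitutive counterparts in the immunoproteasome, and TAP1 encodes a subunit of the transporter that brings peptides into the endoplasmic reticulum. PSMB8 read 273 with ethanol, against 109 in control 1, and 98.9 with acetaldehyde, against 113 in control 2. PSMB9 read 217 with ethanol, against 127 in control 1, and 122 with acetaldehyde, against 118 in control 2. TAP1 read 576 with ethanol, against 362 in control 1, and 466 with acetaldehyde, against 518 in control 2. PSMB8 and PSMB9 were nearly level on the other 3 arrays, and PSMB8 had the largest ethanol difference of the list, 2.50-fold over control 1 and 2.42-fold over control 2. TAP1 stood closer to the culture spread, since its ethanol difference was 0.67 and its control difference 0.52. Each of these 3 adjacent genes on chromosome 6 had 3 probe sets with identical values, so they add no independent reading.

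Other genes of class I antigen presentation were read from a separate list, to see how far the direction of PSMB8, PSMB9 and TAP1 extended. All 8 kept genes of that list were higher with ethanol, with a median of 0.90, against 57.8% higher and a median of 0.05 over all kept genes. Of these 8 genes, 2 (PSME2 and ERAP1) were counted as at least 2-fold higher, where the share over all kept genes was 0.848%. ERAP1 was kept through the ethanol array alone, and without it 7 of 7 genes were higher, 1 was counted and the median was again 0.90. Over all 11 genes of the list with a probe set, dim ones included, 10 were higher and the median was 0.58. PSME2, a subunit of the proteasome activator, read 1086 with ethanol, against 424 in control 1, and 560.3 with acetaldehyde, against 556 in control 2. ERAP1, which trims peptides in the endoplasmic reticulum, read 229 with ethanol, against 93.3 in control 1, and 134 with acetaldehyde, against 97.1 in control 2. TAPBP, the tapasin gene, read 2277 with ethanol, against 1189 in control 1, but 2275 with acetaldehyde and 2718 in control 2. Ethanol thus lay outside both controls for PSME2 and ERAP1 but not for TAPBP, and it did so for 6 of the 8 genes. ERAP1, kept through the ethanol array alone, had to lie above both, and no share over all kept genes was taken for this count. With acetaldehyde the median of the 8 genes was -0.06. The constitutive proteasome beta subunits were higher with ethanol in 6 of 7 genes, with a median of 0.36 and none counted, and PSMB2 had the largest difference of them at 0.44. Of the 9 listed class II genes 7 had a probe set of 1 gene, and CD74 and HLA-DRA had none. Only HLA-DOA was kept, with a log2 ethanol difference of 0.19.

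**Figure D3:**
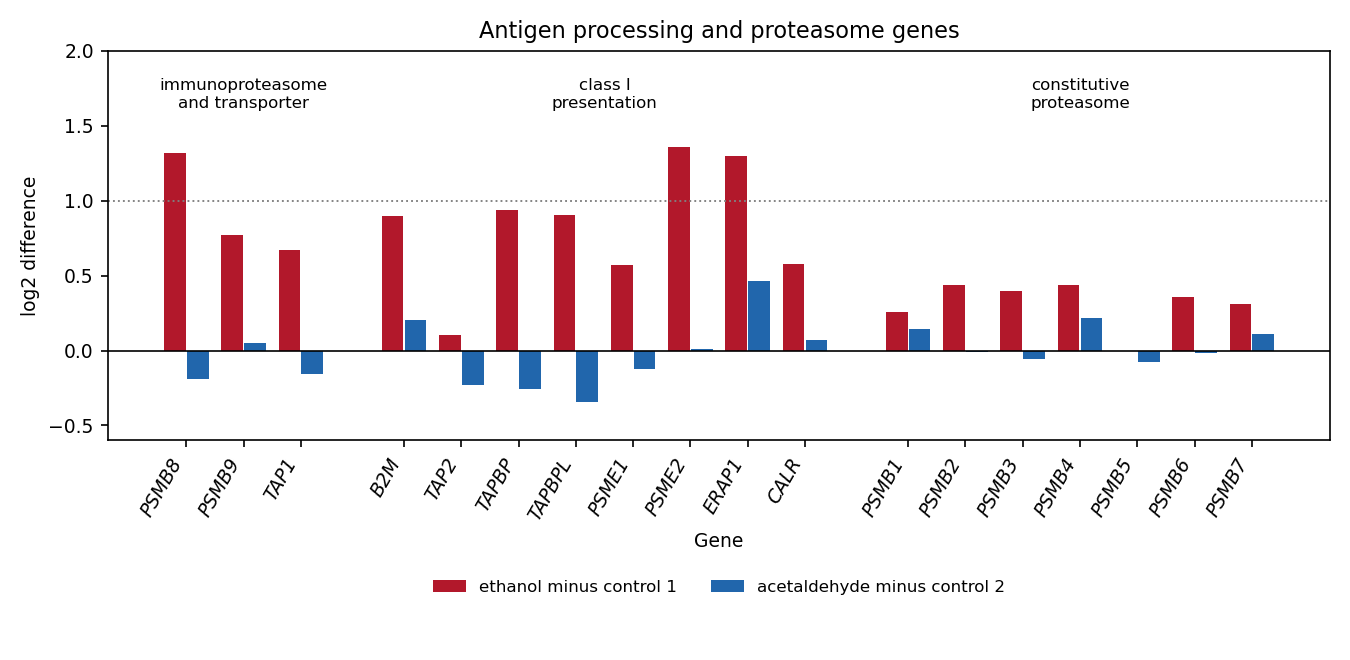
Log2 differences (bars) for ethanol minus control 1 and acetaldehyde minus control 2 of PSMB8, PSMB9 and TAP1, the 8 kept genes of class I presentation and the 7 constitutive proteasome beta subunits, with the dotted line at a 2-fold difference. The ethanol bars of PSMB8 (1.32), PSME2 (1.36) and ERAP1 (1.30) pass the line, while all bars of the constitutive subunits stay at or below 0.44.

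The remaining lists follow the pathway from ligand to target. Most of the interferon genes themselves were low. IFNB1 read 17.6 with ethanol, against 13.0 in control 1, and 22.7 with acetaldehyde, against 22.3 in control 2. Only IFNL2 and IFNL3 of 13 measured ligand genes were kept, with log2 ethanol differences of 0.02 and -0.15. IFNL3 was not low, at 300 with ethanol, against 333 in control 1, and 432 with acetaldehyde, against 411 in control 2. IFNE, the epithelial type I interferon, was dim but read 63.6 with ethanol, against 28.9 in control 1, and 15.9 with acetaldehyde, against 15.7 in control 2, and it is named after its values were seen. Of 9 kept receptor, kinase and STAT genes 7 were higher with ethanol, with a median of 0.36, and none was counted. IFNAR2, a chain of the type I receptor, read 329 with ethanol, against 176 in control 1, and 257 with acetaldehyde, against 256 in control 2. JAK1 and IFNGR1 had log2 ethanol differences of 0.46 and 0.41, but for both genes ethanol lay between the controls. JAK1 read 662 with ethanol, 483 in control 1 and 749 in control 2. IFNGR1 read 970 with ethanol, 730 in control 1 and 1271 in control 2.

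Of 11 kept sensor and adaptor genes 8 were higher with ethanol, with a median of 0.12. STING1, the adaptor of cytosolic DNA sensing, was higher by 0.50 and its kinase TBK1 by 0.46 on the log2 scale. MYD88, the adaptor of Toll-like receptors, had a difference of -0.52. Ethanol lay above both controls for STING1 and TBK1 and between them for MYD88. Of 5 kept negative regulators 4 were higher with ethanol, with a median of 0.22, 1 of them (SOCS1) being kept through the ethanol array alone. IRF2, a repressor at ISRE sites, had the largest difference at 0.56, but its ethanol value lay between the controls. It read 702 with ethanol, 477 in control 1 and 971 in control 2. Of 24 other interferon-induced genes that were kept 20 were higher with ethanol, with a median of 0.32, and 1 was counted, where the share over all kept genes was 0.848%. APOL6 was kept through the ethanol array alone, and without it 19 of 23 genes were higher, 0 were counted and the median was 0.30. The gene APOL6, an apolipoprotein L of the cytoplasm, read 157 with ethanol, against 68.4 in control 1, and 74.5 with acetaldehyde, against 87.3 in control 2. LGALS3BP, a secreted glycoprotein, read 966 with ethanol, against 493 in control 1, and 293 with acetaldehyde, against 313 in control 2. With acetaldehyde the median of these 24 genes was -0.15, and 1 was counted as lower, where the share over all kept genes was 0.174%. This gene, TNFSF10, the death ligand TRAIL, read 118 with acetaldehyde, against 275 in control 2, and 229.8 with ethanol, against 219 in control 1.

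**Figure D4:**
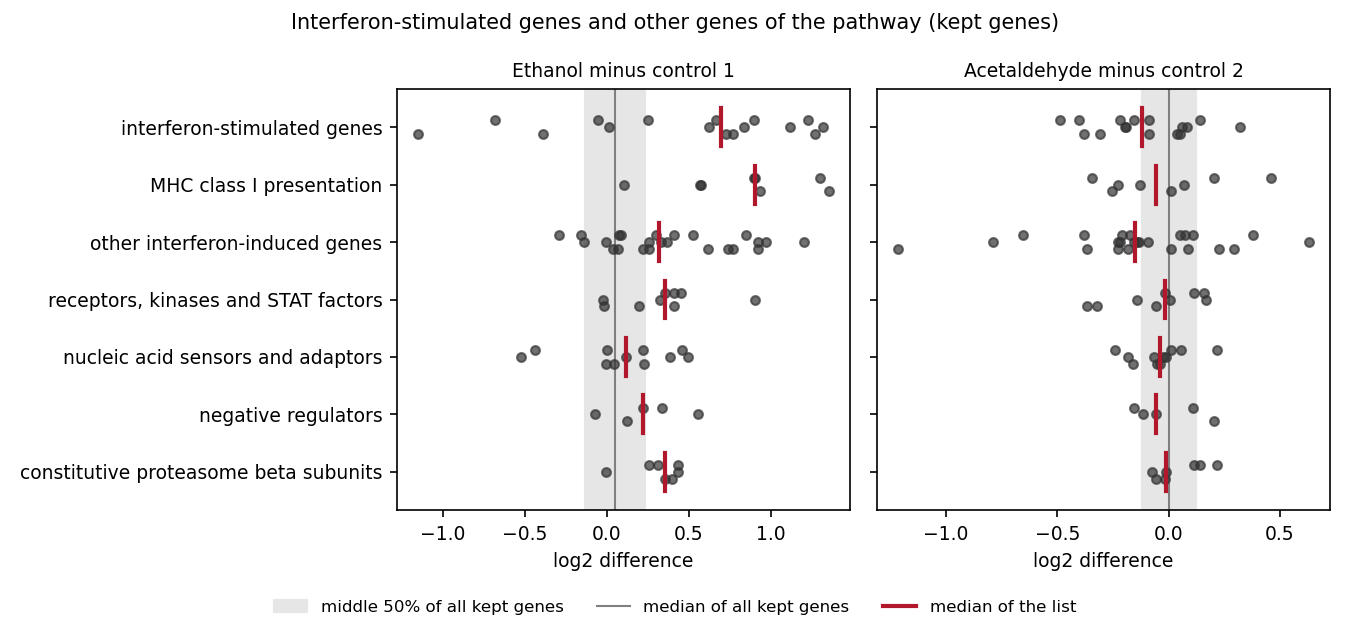
Log2 differences of the kept genes (points) of the interferon-stimulated list and 6 other lists of the pathway for ethanol minus control 1 and acetaldehyde minus control 2, with red bars at each list's median, a grey line at the median of all kept genes and a grey band over the middle 50% of them. With ethanol the medians of the interferon-stimulated genes (0.70) and of class I presentation (0.90) are the 2 furthest to the right, and with acetaldehyde all list medians lie between -0.15 and -0.01.

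Markers of other cell types and states were read beside these differences. Of 16 measured leukocyte markers 4 were kept. The summed intensity of all 16 was 2782 with ethanol, against 2614 in control 1, and 2847 with acetaldehyde, against 3220 in control 2. Most of this sum came from CD68, a kept gene, at 1764 with ethanol and 1622 in control 1. PTPRC, the pan-leukocyte surface marker, read 10.3 with ethanol, against 10.9 in control 1, and 14.0 with acetaldehyde, against 15.9 in control 2, below the lower quartile of each array. CD14, a monocyte marker and 1 of the 4 kept genes, read 287 with ethanol, against 189 in control 1, and 183 with acetaldehyde, against 279 in control 2. The ethanol differences of the 4 kept markers lay between -0.54 (NKG7) and 0.60 (CD14), and their part in the interferon-stimulated differences was not tested. Squamous differentiation genes stood further apart than the interferon-stimulated genes: with ethanol all 23 kept genes were lower, the median being -2.56, and the list's summed intensity was 7623 with ethanol, against 57268 in control 1, and 15039 with acetaldehyde, against 27465 in control 2. These genes also differed between the unexposed cultures, with a median of -1.57 for control 2 minus control 1, whereas the interferon-stimulated genes had a median of 0.18 there. The part of squamous differentiation state in the interferon-stimulated differences was not tested. In RNA from whole cultures, fewer cells of a type and less RNA per cell cannot be told apart.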

How the data were processed

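RNA of 4 MCF12A cultures was measured on 4 arrays, grouped by the sample labels, which pair ethanol with control 1 and acetaldehyde with control 2. The authors deposited 1 linear intensity per probe set and array (33297 probe sets). RMA is named in the submitters' processing notes, with software and version not given in the sources used here. No offset was added when the authors' deposited intensity values were converted to log2, a step needed because the planned tests assumed log2 values. The arrays of the ethanol pair shared identical values for 77 probe sets and those of the acetaldehyde pair for 38, against 0 or 1 across pairs, which points to separate normalization. No other per-sample columns were found. No detection calls were used, so dim genes were defined by intensity alone.

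Of the probe sets, 19460 had 1 gene symbol in the platform annotation, 1754 had several and 12083 had none; 19429 symbols were matched to RefSeq and 0 changed. The probe set with the highest mean stood for each of the 769 genes that had several. The fit was made with limma 3.58.1 in R 4.3.3, tested on simulated data; other steps used Python 3.11.15. Values are given for genes at least 2-fold apart in any comparison, the 5 largest differences in each direction of each comparison and the largest ethanol difference of each role; of other lists, up to 3 kept genes with the largest differences. The genes and lists were chosen with earlier results of these data known, so no list is independent evidence. Alternatives covered scaling, filters, fold threshold, offset, probe set choice, the other control and the fit's block. Longer exposures, soft agar clones and microRNA were not analysed here.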

Additional observations from a re-analysis of the deposited data

Results flagged for a closer look

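For 3 of the kept interferon-stimulated genes that were at least 2-fold higher with ethanol, the acetaldehyde array lay slightly below its own control, so the responses ran in opposite directions. The ethanol difference minus the acetaldehyde difference was 1.51 on the log2 scale for PSMB8, 1.36 for PARP14 and 1.32 for DTX3L. With 1 array per group this contrast between the responses was not tested, and nearly all of it came from the ethanol pair, since the acetaldehyde differences were -0.19, -0.09 and -0.09 in the same order.

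GBP1, a guanylate-binding GTPase strongly induced by interferon gamma, entered none of the counts because its probe set also names GBP3 and GBP1P1. That probe set read 179.8 with ethanol, against 73.2 in control 1, and 129 with acetaldehyde, against 125 in control 2. Its log2 ethanol difference was 1.30, and the array cannot say which of the named genes carried it. Ethanol lay above both controls, and control 2 stood 0.77 above control 1 on the log2 scale.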

How the results depend on the processing

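Across 12 alternative settings, 144 of 168 recomputed values stayed within the spread allowed for them and 24 moved. No counted gene changed direction, but the median difference between the controls changed sign under 1 setting, given below. The ethanol differences of PSMB8, PARP14, DTX3L, IRF1 and OAS1 kept their direction in all 49 recomputed values, but most of these values could not change. The filters, the fold threshold, the rule on both controls and the probe set choice left the difference of each of these genes as it was. Only the scaling, the offset and the other control could move it, and OAS1 was at -0.04 against control 2. PSMB8 was no longer kept when the filter used the mean over arrays. At 1.5-fold, 10 kept genes were counted as higher with ethanol instead of 4, where 3.84% of all kept genes were. The count of lower genes with ethanol was 0 instead of 1 under 3 settings. After quantile normalization of all 4 arrays and after shifting them to 1 median, OAS1 kept its size (-1.12 and -1.13) but no longer lay below both controls. Against control 2 its difference was gone. The median ethanol difference was 0.44 with the filter on the mean and 0.54 against control 2, instead of 0.70. With the filter on the mean, 6 of 10 genes were higher instead of 12 of 16. Against control 2, 3 genes were counted as higher (IFIT5, at 1.57, with PSMB8 and DTX3L), and the log2 differences were 1.28 for PSMB8, 1.11 for DTX3L, 0.81 for PARP14, 0.57 for IRF1 and -0.04 for OAS1. With acetaldehyde set against control 1, the count of lower genes was 2 instead of 0. Between the controls, 3 dim genes (IFIT1, HERC5 and GBP2) were at least 2-fold higher in control 2 without the filter, and the median was 0.31 without the filter and -0.070 after shifting the arrays, instead of 0.18. That shift also moved the median of all genes between the controls by -0.20, and leaving out the filter moved it by 0.16, so the direction of the list between the controls is not settled.

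limma called 0 genes under every alternative run, and the smallest adjusted p of an interferon-stimulated gene ranged from 0.417 without the filter to 1.00 without the experiment block. The fit without the block had 0 interferon-stimulated genes with an unadjusted p below 0.05. The limits are the 4 arrays, the apparent separate normalization of the pairs, control 1 as the sole matched control of ethanol, and signal below the filter for 19 of 35 genes.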

Other observations

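Within the kept genes, the genes of 2 chromosome neighbourhoods had the same direction with ethanol: PSMB8, PSMB9 and TAP1 on chromosome 6, and PARP9, DTX3L and PARP14 on chromosome 3. With dim genes included, the 4 IFIT genes on chromosome 10 and the IFI44L and IFI44 genes on chromosome 1 were also all higher. In other neighbourhoods the paralogs differed in direction, with SAMD9 at -0.68 and SAMD9L at 0.58 on chromosome 7, OAS1 at -1.15 and OAS3 at 0.25 on chromosome 12, MX2 at -0.33 and MX1 at 0.53 on chromosome 21, and HERC6 at -0.67 and HERC5 at 0.76 on chromosome 4 (log2, ethanol minus control 1). These neighbourhoods were picked out after the values were seen, and no test was made.

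Near the 2-fold limit of the ethanol comparison, IRF1 at 1.12 was the kept gene just inside and IFIT5 at 0.90 the one just outside, and among dim genes IFI44L at 1.01 was just inside. Near the filter, ISG20 was just kept with a highest intensity of 156 and OASL was just left out at 145.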
